A study of Penicillium oxalicum with 6 samples.

Results

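A set of 50 genes of *Penicillium oxalicum* was near-silent in the parental strain Δ*ku70* and higher in every library of the deletion strain Δ*rsrC*. The genes were chosen by their values among 9822 genes. Each stood under 6 FPKM (fragments scaled to gene length and library size) in every Δ*ku70* library, which held for 2061 genes. Of these, 2032 lay outside POX_f08105 to POX_f08149 and POX_c04700 to POX_c04731, a pair of gene stretches that were left out. The 2032 genes were ranked by the lowest Δ*rsrC* value minus the highest Δ*ku70* value, here called the gap, and the first 50 were taken. Because the gap was taken from the same comparison, the levels of the 50 genes are a description and carry no test.

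RNA-seq was performed on mycelium, with 3 libraries of Δ*ku70* and 3 of Δ*rsrC*. Δ*ku70* lacks a gene of non-homologous end joining, which raises the share of transformants with the cassette at the intended locus. Its genotype label reads WT, but both strains lack *ku70*. Δ*rsrC* additionally lacks *rsrC* (POX_a01508), which encodes a C2H2 zinc-finger transcription factor. Its libraries are labelled with another gene number, POX00418, and no source used here states that this is POX_a01508. They were assigned to Δ*rsrC* by the study's description of the comparison. A knockout cassette with a drug resistance marker replaced the gene. Which transformant was sequenced is not stated in the sources used here. Mycelium from a 24 h glucose culture was moved to an enzyme production medium and harvested for RNA 24 h later. The labels give the carbon source of that medium as Avicel in one field and raw starch in another. The study describes a commercial corn starch. The labels do not say whether the 3 libraries of a strain came from separate cultures, so p-values measure only the spread between libraries.

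Many genes of filamentous fungi are hardly transcribed under a given growth condition and are switched on by a change of nutrient, by development or by stress. Genes that make a secondary metabolite often lie side by side and rise together as a cluster. C2H2 zinc-finger proteins bind DNA through finger-shaped domains and can act as activators or as repressors. A transcript that is higher without such a protein may be a direct target or lie far downstream, and transcript levels alone do not separate these cases.

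The deleted gene was checked first. POX_a01508 had 27.1, 30.3 and 39.0 FPKM in the parent libraries and 0 in every library of the deletion strain. Each library held 8451 to 8535 genes of at least 1 FPKM and 854 to 909 genes listed at 0. Relative depth, read from low values, ranged from 77.8% to 105% of Δ*ku70* replicate 1, and absolute depth is unknown because the tables hold no counts. Conidia, the asexual spores, are another cell type that a mycelium can hold. Of 3 conidiation genes, the regulator *brlA* ranged from 0.81 to 1.71 FPKM in the parent and from 0.42 to 1.59 FPKM in Δ*rsrC*. The hydrophobin gene *rodB* ranged from 66.7 to 87.0 FPKM in Δ*ku70* and from 13.4 to 49.5 FPKM in Δ*rsrC*, lowest in Δ*rsrC* replicate 3. The *rodA*-like gene ranged from 87.1 to 146 FPKM in the parent and from 24.4 to 43.0 FPKM in Δ*rsrC*. The part of spore-forming cells in the values of the 50 genes was not tested, and in bulk RNA more cells of a type and more RNA per cell cannot be told apart.

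The 50 genes ran from a few that reached the level of well-expressed genes to a majority that stayed low in both strains. Their median mean level was 2.61 FPKM in Δ*ku70* and 10.3 FPKM in Δ*rsrC*, where the median gene of the whole genome stood at 32.1 and 27.4 FPKM, respectively. In Δ*rsrC*, 8 of the 50 genes lay above the median gene. All 3 Δ*rsrC* libraries reached 6 FPKM for 37 genes, 10 FPKM for 14, 20 FPKM for 6 and 50 FPKM for 2. In contrast, 13 genes stayed under 6 FPKM in at least 1 Δ*rsrC* library, and 2 of these did so in all 3. The description of the set as genes switched on therefore held for its first members and not for its last ones, which moved from one low level to another.

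In a limma fit over all tested genes, the median log2 change, on the log2(FPKM + 1) scale, was 1.70 over the 50 genes and -0.13 over the 8605 tested genes. The fit called 49 of the 50 raised at an adjusted p-value under 0.05, where 13.8% of all tested genes and 14.2% of the 844 tested genes under 6 FPKM in every Δ*ku70* library were called raised. Values of all 3 Δ*rsrC* libraries above all 3 Δ*ku70* libraries, which the ranking required of its members, were seen in 19.4% of tested genes and in 242 of the 2061 near-silent genes (11.7%). These shares are background only, since the genes were picked for this difference. The gene not called was POX_a01660, which had 1 Δ*ku70* library listed at 0.

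**Figure D1:**
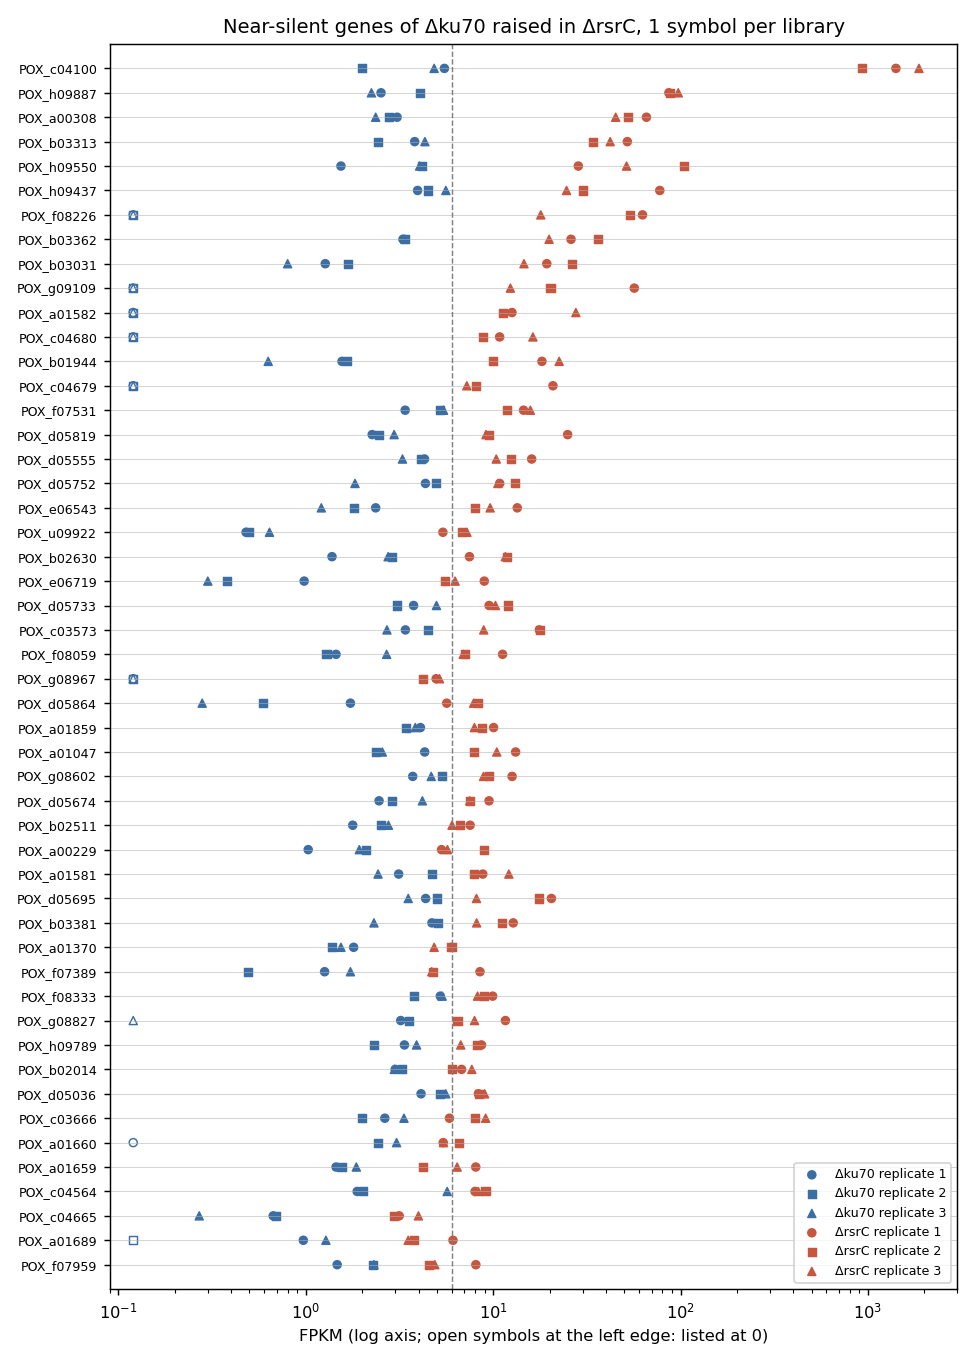
FPKM of the 50 genes in each library (log axis), ordered by gap from top to bottom, with blue symbols for Δ*ku70*, red symbols for Δ*rsrC* and open symbols at the left edge for values listed at 0. The dashed line marks 6 FPKM, and for 37 genes all 3 red symbols lie at or above it.

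The gene with the largest gap, POX_c04100, stood far above the others. Its parent libraries gave 5.49, 1.99 and 4.84 FPKM and its Δ*rsrC* libraries 1409, 924 and 1870 FPKM, 341 times higher by the ratio of means (4.11 ± 1.86 against 1401 ± 473, SD, n = 3). This made it the gene with the 154th highest mean of 9822 in Δ*rsrC*. The study annotates it as a hypothetical protein, so no role is known from the sources used here. It alone held 61.2%, 54.1% and 73.2% of the summed FPKM of the 50 genes in the 3 Δ*rsrC* libraries. With it, the sum rose from between 117 and 124 FPKM in the parent to between 1708 and 2554 FPKM in Δ*rsrC*, or from at most 0.00956% to at least 0.113% of all FPKM in a library. Without it, the sum was 111.5 to 121 FPKM in the parent and 684 to 892 FPKM in Δ*rsrC*.

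POX_h09887 came second. Its 3 Δ*ku70* libraries stood at 2.52, 4.05 and 2.24 FPKM, and its Δ*rsrC* libraries at 86.6, 87.4 and 97.1 FPKM, a ratio of means of 30.8. The highest Δ*rsrC* library was 1.12 times the lowest, a smaller spread than in any other member except POX_d05036. It was the only member without an entry in the RefSeq gene table, and no annotation of it was found.

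POX_a00308 and POX_b03313, both annotated as hypothetical proteins, followed. POX_a00308 had 3.07, 2.79 and 2.36 FPKM in the Δ*ku70* libraries and 65.7, 52.2 and 45.03 FPKM in those of Δ*rsrC*. POX_b03313 went from 3.81, 2.43 and 4.32 FPKM in the parent to 52.0, 34.2 and 42.1 FPKM without *rsrC*. In both genes the groups lay far apart, with ratios of means of 19.8 and 12.1.

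The next members, POX_h09550 and POX_h09437, reached similar means but were much less even over the Δ*rsrC* libraries. The Δ*ku70* libraries of POX_h09550 gave 1.54, 4.18 and 4.05 FPKM and the Δ*rsrC* libraries gave 28.4, 104 and 51.5 FPKM. POX_h09437 was measured at 3.95, 4.5 and 5.59 FPKM in the parent and at 77.4, 30.2 and 24.6 FPKM in the deletion strain. The first was highest in Δ*rsrC* replicate 2 and the second in replicate 1, so that no single library carried both. Neither has an annotation in the sources used here.

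POX_b03362 and POX_b03031, both hypothetical proteins, were of lower level. POX_b03362 was almost flat in Δ*ku70*, at 3.30, 3.39 and 3.38 FPKM, and stood at 26.0, 36.1 and 19.9 FPKM in Δ*rsrC*. POX_b03031 had 1.27, 1.67 and 0.80 FPKM in the Δ*ku70* libraries and 19.3, 26.3 and 14.6 FPKM in those of Δ*rsrC*. Both had the order replicate 2, then 1, then 3 in Δ*rsrC*, which was found in 4 of the 50 genes and in 18.6% of tested genes.

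The members that came closest to a switch from off to on were 6 genes listed at 0 in all 3 Δ*ku70* libraries. POX_f08226 stood at 62.6, 53.5 and 17.9 FPKM in Δ*rsrC*. POX_g09109 stood at 56.6, 20.2 and 12.3 FPKM. POX_a01582 stood at 12.6, 11.3 and 27.6 FPKM. These 3 all exceeded 10 FPKM in every Δ*rsrC* library, and none of them was even across the libraries. POX_c04680 stood at 10.8, 8.78 and 16.3 FPKM, its neighbour by number POX_c04679 at 20.8, 8.14 and 7.23 FPKM, and POX_g08967 at 4.96, 4.2 and 5.17 FPKM. The last stayed under 6 FPKM in every Δ*rsrC* library and was the most even of the 6. No fold is given for these genes, because a value of 0 sets none.

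Genes listed at 0 in every library of one strain were common, and such genes with clear values in the other were rare. In Δ*ku70*, 662 genes were at 0 in all 3 libraries, and 544 of these were also at 0 in all 3 Δ*rsrC* libraries. Only 11 of the 662 were above 0 in every Δ*rsrC* library, and the 6 genes above are those that reached at least 3 FPKM there in every library. In the opposite direction and without the deleted gene, 1 gene at 0 in all Δ*rsrC* libraries reached 3 FPKM in every Δ*ku70* library and 0 reached 10 FPKM, where 3 of the 6 members did so in Δ*rsrC*. A listed 0 was not always shared by the libraries of a strain, since 89 genes were at 0 in at least 1 Δ*ku70* library and at 5 FPKM or more in another. In Δ*rsrC*, 84 genes showed this. Whether such a 0 was a failed estimate was not tested, as FPKM hold no counts. Among the members, POX_g08827, POX_a01660 and POX_a01689 were at 0 in exactly 1 Δ*ku70* library, and none was at 0 in a Δ*rsrC* library.

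For the 41 members above 0 in all 3 Δ*ku70* libraries, the ratio of means had a median of 3.85. It was at least 2 for 39 genes, at least 3 for 27, at least 5 for 16 and at least 10 for 9. Beside the genes given above, the last count included POX_b01944 at 13.2, POX_e06719 at 12.5 and POX_u09922 at 11.98, the latter 2 singled out after their values were seen. POX_u09922 went from 0.48, 0.50 and 0.64 FPKM in the parent to 5.39, 6.78 and 7.24 FPKM without *rsrC*. It is the only member that overlaps other genes in the RefSeq table, namely a tRNA gene, an rRNA gene and POX_u09924, so reads of these may be counted for it. The lowest ratio was 1.73, in POX_d05036, which went from 4.12, 5.19 and 5.58 FPKM in the parent to 8.34, 8.39 and 9.0 FPKM in Δ*rsrC*.

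An annotation beyond the words hypothetical or unnamed protein was found for 4 members. Of these, 3 were labelled as carbohydrate-active enzymes, beside 270 of the 9822 genes and 39 of the near-silent genes. A sugar transporter label was found for 1 member, beside 28 of all genes and 3 of the near-silent genes. No trait of the set is read from these counts. POX_b01944 is annotated as a sugar transporter, a membrane protein that carries sugars into or out of the cell. The Δ*ku70* libraries of this gene gave 1.56, 1.65 and 0.63 FPKM and the Δ*rsrC* libraries gave 18.2, 9.95 and 22.5 FPKM. Replicate 2 was its lowest Δ*rsrC* library, and the groups did not overlap. POX_a01047 carries a glycosyltransferase annotation (GT69 and GT81), the class that transfers sugar residues onto an acceptor. It was measured at 4.31, 2.38 and 2.56 FPKM in the parent and at 13.2, 7.89 and 10.4 FPKM in the deletion strain.

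The other 2 annotated members were low in both strains. POX_b02511 carries a CBM1 module, which in fungal enzymes binds cellulose. It had 1.78, 2.53 and 2.76 FPKM in the Δ*ku70* libraries and 7.53, 6.67 and 6.03 FPKM in those of Δ*rsrC*. POX_a00229 carries a CE9 annotation, a carbohydrate esterase family that removes acetyl groups from an amino sugar. It went from 1.03, 2.10 and 1.93 FPKM in the parent to 5.30, 8.88 and 5.70 FPKM without *rsrC*, under 6 FPKM in 2 of its 3 libraries.

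The 23 members not given one by one filled the middle of the set, with gaps of 2.5 to 6.39 FPKM. Their libraries ranged from 0 to 5.43 FPKM in the parent and from 4.70 to 24.9 FPKM in Δ*rsrC*, and the Δ*rsrC* means from 5.61 to 15.4 FPKM. All 3 Δ*rsrC* libraries reached 6 FPKM for 18 of them. The highest library was replicate 1 for 15, and the ratio of the highest to the lowest Δ*rsrC* library lay between 1.20 and 2.73. Where all 3 Δ*ku70* libraries were above 0, their ratio of means ran from 1.89 to 12.5. An annotation text was found for 7 of these genes, hypothetical protein in each case.

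The role of most members is not known from the sources used here. The study's supplement gave an annotation text for 24 of the 50 genes, and 20 of these read hypothetical or unnamed protein. Its tables were held only in part, so a missing text says nothing about a gene, and the class counts given above are a description only.

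The gap fell steeply over the first members and then slowly, with no break at the 50th. It ran from 918 FPKM to 2.24 FPKM with a median of 4.21 FPKM, and it was at least 10 FPKM for 11 genes, at least 5 for 19 and at least 3 for 37. Over all 2061 near-silent genes the median gap was -0.15 FPKM. The last member, POX_f07959, went from 1.47, 2.28 and 2.31 FPKM in the parent to 8.08, 4.55 and 4.88 FPKM in Δ*rsrC*. Just ahead of it were POX_a01689, at 0.97, 0 and 1.28 FPKM against 6.10, 3.77 and 3.52 FPKM, and POX_c04665, at 0.67, 0.69 and 0.27 FPKM against 3.15, 2.97 and 3.99 FPKM. All 3 had gaps of 2.24 to 2.28 FPKM.

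The 3 genes just outside were much alike. The Δ*ku70* libraries of POX_b03083 gave 2.88, 2.18 and 1.85 FPKM and the Δ*rsrC* libraries gave 6.25, 6.49 and 5.08 FPKM, with a gap of 2.20 FPKM. POX_a01154 stood at 0.78, 1.51 and 1.96 FPKM against 4.73, 4.15 and 8.76 FPKM, with a gap of 2.19 FPKM. POX_a00642 stood at 3.07, 1.32 and 1.59 FPKM against 18.8, 7.14 and 5.20 FPKM, with a gap of 2.13 FPKM. The Δ*rsrC* mean of POX_a00642, 10.4 FPKM, lay above the median of the members, while its lowest library was well under that median. A ranking by the difference of means would have brought 18 other near-silent genes into the first 50.

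The opposite pattern, genes near-silent in Δ*rsrC* and higher in Δ*ku70*, was at least as common in the FPKM as deposited. Outside the left-out stretches and without the deleted gene, 2093 genes stood under 6 FPKM in every Δ*rsrC* library, and 292 of them had every Δ*ku70* library above every Δ*rsrC* library. The same count for genes near-silent in Δ*ku70* was 234 of 2032. Both counts are given without rescaling, and scaling moved the balance of raised and lowered calls over all genes. The 50th largest gap was 3.27 FPKM in the opposite direction and 2.24 FPKM here. At the top the order was reversed, since the largest opposite gap was 41.4 FPKM, in POX_a00410 (49.7, 89.7 and 45.7 FPKM in Δ*ku70*, 3.74, 4.30 and 4.14 FPKM in Δ*rsrC*), and the largest gap here was 918 FPKM. A gap of at least 10 FPKM was found for 7 genes in the opposite direction and for 11 here.

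**Figure D2:**
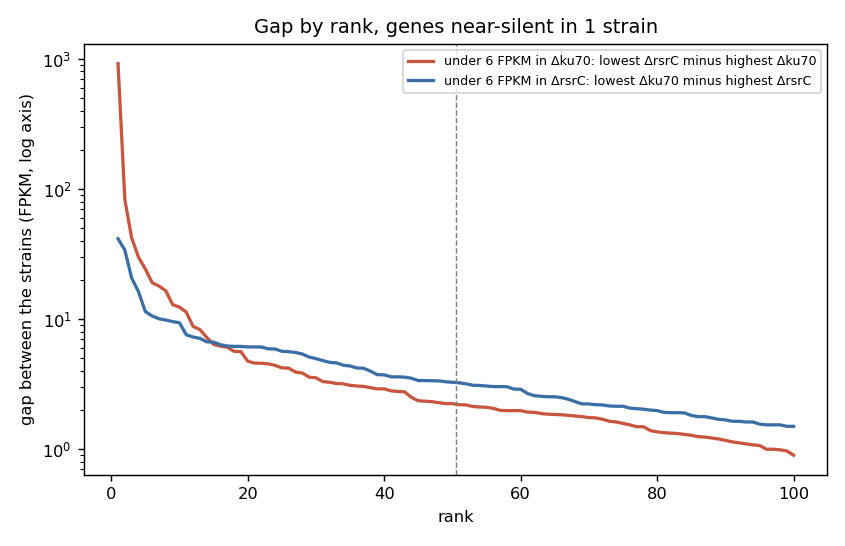
Gap in FPKM (log axis) against rank, in red for genes near-silent (under 6 FPKM) in all parent libraries and in blue for genes under 6 FPKM in every Δ*rsrC* library, with the dashed line after rank 50. The red line starts at 918 FPKM, crosses the blue line within the first 20 ranks and lies at 2.24 FPKM at rank 50, where the blue line, which leaves out the deleted gene, lies at 3.27 FPKM.

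The median spread among the 3 Δ*rsrC* libraries was larger in the members than in other genes of like level there. The median ratio of the highest to the lowest Δ*rsrC* library was 1.58 over the 50 genes and 1.24 over the 8432 tested genes above 0. Over the 1079 other tested genes whose Δ*rsrC* mean lay between the quartiles of the members, 7.02 and 15.2 FPKM, it was 1.27. In Δ*ku70*, the median ratio was 1.68 over the 41 members above 0 in every library. The 338 other tested genes above 0 with a Δ*ku70* mean between the quartiles of these members, 1.79 and 3.79 FPKM, had a median of 1.75. The rule used the lowest Δ*rsrC* and the highest Δ*ku70* value of each gene, so these ratios are a description.

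The ratio over the Δ*rsrC* libraries ranged from 1.08 to 4.58. It was under 1.5 for 20 genes, above 2 for 10 and above 3 for 4. The least even was POX_g09109 at 4.58, followed by POX_h09550 at 3.67, POX_f08226 at 3.49 and POX_h09437 at 3.14. All 4 were among the first 10 genes by gap, and 3 of them were highest in Δ*rsrC* replicate 1. The most even were POX_d05036 at 1.08, POX_h09887 at 1.12 and POX_c04564 at 1.14. POX_c04564, an unnamed protein, stood at 8.0, 9.10 and 8.33 FPKM in Δ*rsrC* and at 1.88, 2.02 and 5.68 FPKM in Δ*ku70*, where replicate 3 came close to the ceiling of 6 FPKM.

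**Figure D3:**
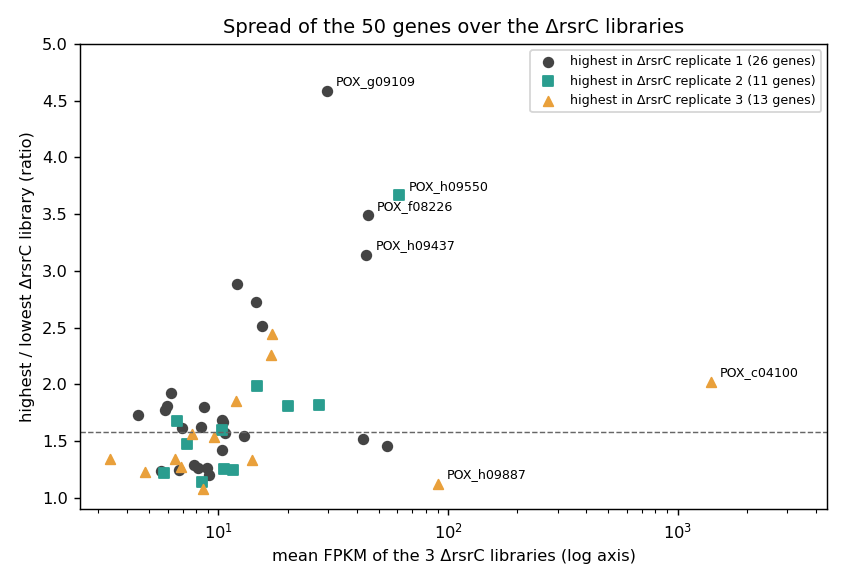
Ratio of the highest to the lowest Δ*rsrC* library against the mean FPKM of the 3 Δ*rsrC* libraries (log axis) for the 50 genes, with the symbol giving the library in which each gene was highest. The dashed line is the median of 1.58, and 26 genes were highest in replicate 1, 11 in replicate 2 and 13 in replicate 3.

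Replicate 1 of Δ*rsrC* was the highest library for 26 members (52%), and for 34.7% of tested genes. Replicate 2 was the highest for 11 members (22%) and for 37.9% of tested genes, and replicate 3 for 13 members (26%) and for 27.4% of tested genes. The order replicate 1, then 2, then 3 was found in 19 members (38%), beside 22.8% of tested genes. Conversely, replicate 3 was the lowest library for 23 members (46%), beside 40.5% of tested genes. Replicate 1 had the lowest relative depth of the 6 libraries, at 77.8%, and the highest *rodB* value of the Δ*rsrC* libraries. Their part in this order was not tested. All 6 of the left-out genes that would have ranked among the first 50 (POX_f08120, POX_f08121, POX_f08124, POX_f08129, POX_f08130 and POX_f08133, with gaps of 27.0 to 296 FPKM) were highest in replicate 2, an order that was seen in 11 of the 50 members.

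By gene number, the members were scattered over the genome and did not form a long run. Gene numbers were taken as the order of the genes within each letter of the IDs. The letters a, b, c and d held 10, 8, 7 and 8 members, e, f, g and h held 2, 6, 4 and 4, and u held 1. Their shares of all genes were 19.5%, 15.5%, 13.1% and 13.7%, then 11.9%, 11.99%, 8.55% and 5.41%, and 0.214%. Letter e thus held 4% of the members and 11.9% of the genes. Near the ends of the numbering, within 50 gene numbers, lay 2 members (4%), beside 8.08% of all genes and 11.2% of the near-silent genes. With ceilings of 3 and 10 FPKM the count was 7 and 6 of 50, above the share of all genes, so no direction is given. Within 100 gene numbers lay 9 members (18%), beside 16.1% of all genes and 21.1% of the near-silent genes.

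**Figure D4:**
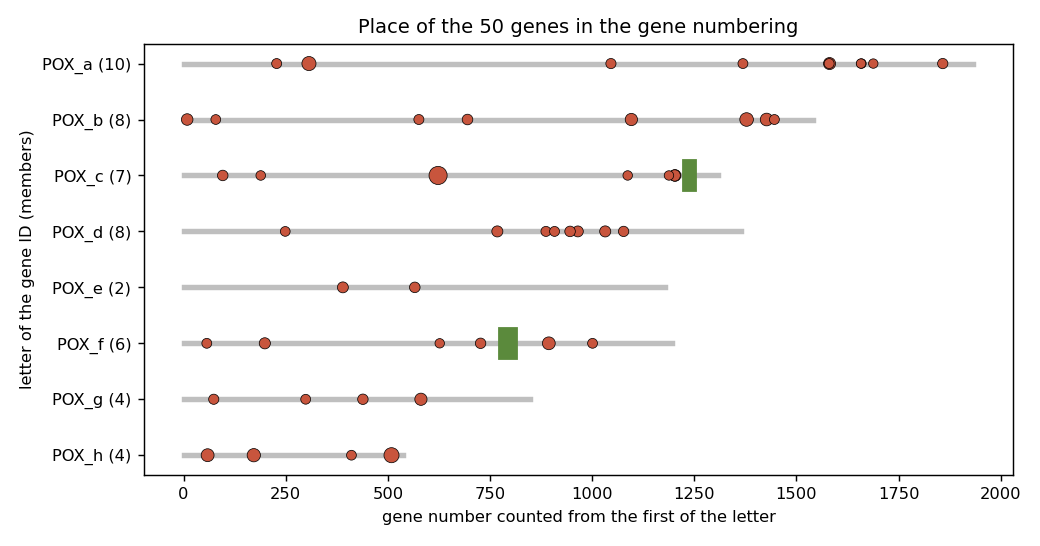
Place of the members in the numbering of each letter of the gene IDs, counted from the first gene of the letter. Larger circles stand for a larger gap, and green blocks mark the left-out stretches. Letter u, with 1 member, is not drawn, and the 3 pairs of consecutive members, on a and c, overlap fully at this scale.

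Close neighbours among the members came to 3 pairs of consecutive numbers and no run of 3 or more. These 6 genes (12% of the members) were also the only ones with another member within 5 or within 10 gene numbers. Among the 9772 other genes, 0.952% had a member at the next number, 4.71% within 5 and 9.26% within 10 gene numbers. The count of 6 fell to 2 without Δ*rsrC* replicate 3 and under ceilings of 3 or 10 FPKM, so it rests on how the set was drawn. The pair POX_c04679 and POX_c04680 was at 0 in all Δ*ku70* libraries for both genes. It lies 20 gene numbers before the left-out stretch on c.

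Over wider stretches, picked after the places of the members were seen and given with no test, members were denser on parts of a, b, c, d, f and g. POX_a01581 to POX_a01859 held 6 members among 52 near-silent genes (11.5%). POX_d05555 to POX_d05819 also held 6, among 61 near-silent genes (9.84%). POX_b03313 to POX_b03381 held 3 among 12 (25%), of which POX_b03313 and POX_b03362 were given above for their large gaps. On c, POX_c04665 to POX_c04680 held 3 among 4 near-silent genes (75%), and POX_c04564 to POX_c04680 held 4 among 56 (7.14%). On f, POX_f07959 to POX_f08226 held 3 among 75 (4%), and on g, POX_g08827 to POX_g09109 held 3 among 47 (6.38%). Over all genes, 2.43% of the near-silent genes were members. Among tested nonmembers of these stretches, the share called raised was near or below the 13.8% of all tested genes, except on f. The counts were 25 of 247 on a (10.1%), 33 of 226 on d (14.6%) and 8 of 63 on b (12.7%). They were 11 of 71 on the longer stretch of c (15.5%) and 33 of 253 on g. On f, 50 of 219 were called raised (22.8%), and that stretch spans the left-out POX_f08105 to POX_f08149. The part of the left-out genes in the f count was not tested.

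In the pair POX_a01581 and POX_a01582, only the second gene was at 0 in all Δ*ku70* libraries. POX_a01581, a hypothetical protein, went from 3.13, 4.71 and 2.43 FPKM in the parent to 8.80, 7.89 and 12.1 FPKM in Δ*rsrC*. Both genes were highest in Δ*rsrC* replicate 3 and lowest in replicate 2. The following genes were uneven in both strains, POX_a01583 at 0, 4.28 and 11.02 FPKM in the parent and at 9.29, 3.91 and 19.3 FPKM in Δ*rsrC*, and POX_a01584 at 5.41, 23.9 and 0 FPKM against 46.0, 24.4 and 26.7 FPKM. The groups overlapped for POX_a01583 and not for POX_a01584, and neither passed the test (limma, adjusted p = 0.284 and 0.0903).

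The last pair, POX_a01659 and POX_a01660, was low throughout. POX_a01659 was measured at 1.45, 1.55 and 1.86 FPKM in the parent and at 8.07, 4.2 and 6.42 FPKM in the deletion strain. POX_a01660 had 0, 2.43 and 3.05 FPKM in the Δ*ku70* libraries and 5.41, 6.59 and 5.43 FPKM in those of Δ*rsrC*. The libraries of the 2 genes did not share an order in Δ*rsrC*, the first gene being lowest and the second highest in replicate 2.

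The genes around the members, which the rule did not use, were called raised about as often as other genes, and those at the next number were called lowered less often by share. Of the 411 tested genes within 5 numbers of a member that were no members, 64 were called raised (15.6%), beside 13.8% of all tested genes, and their median log2 change was -0.05. Of the 83 tested genes at the very next number, 14 were called raised (16.9%) and 13 lowered (15.7%), the latter beside 25.6% of all tested genes. Raised or lowered together were 27 of the 83 (32.5%), beside 39.3% of all tested genes, and this difference was not tested. Near-silent genes made up 23.7% of the genes within 5 numbers of a member and 21.0% of all genes. The lowest count of raised genes within 5 numbers was 41, without Δ*ku70* replicate 1 or without Δ*rsrC* replicate 1, when 9.42% and 8.89% of all tested genes were called raised.

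The neighbours of the first members were looked at 1 by 1, and those named here were singled out after their values were seen. Beside POX_c04100, the genes POX_c04099 (means of 130 and 133 FPKM in Δ*ku70* and Δ*rsrC*) and POX_c04101 (24.9 and 28.3 FPKM) had log2 changes of 0.05 and 0.18 (limma, adjusted p = 0.821 and 0.256). POX_c04103, 3 numbers on, was raised by 0.96 ± 0.21 (log2 scale, SE) from 258, 247 and 351 FPKM to 664, 595 and 420 FPKM, with a limma adjusted p of 0.0137. The intervening gene POX_c04102 had means of 80.2 and 88.4 FPKM. None of these genes was near-silent in the parent.

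Beside POX_h09887, the 2 preceding genes moved the other way. POX_h09886 went from 93.3, 101.2 and 123 FPKM in the parent to 13.2, 15.1 and 9.39 FPKM without *rsrC*. Its log2 change was -2.99 ± 0.19 (SE, limma, adjusted p = 0.000364). The Δ*ku70* libraries of POX_h09885 gave 67.0, 82.1 and 115 FPKM and the Δ*rsrC* libraries gave 14.8, 16.2 and 11.4 FPKM, with a change of -2.54 ± 0.22 on the log2 scale (SE, limma, adjusted p = 0.000845). Neither pair of groups overlapped, and both falls passed the test in all 12 alternative fits. The next gene, POX_h09888, was near 0 in both strains, at 0 to 0.67 FPKM in the parent and at 0.29 to 1.07 FPKM in Δ*rsrC*. How the reads of POX_h09885, POX_h09886 and POX_h09887 were divided was not tested.

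Around POX_a00308, the direct neighbours were not near-silent and stood lower in Δ*rsrC* by mean. POX_a00307 and POX_a00309 had log2 changes of -0.43 ± 0.13 and -0.39 ± 0.12 (SE), with limma adjusted p-values of 0.0388 and 0.0426 that were lost in 8 and 10 of the 12 alternative fits. POX_a00306 was raised by 1.14 ± 0.15 (log2 scale, SE), from 39.6, 37.7 and 50.47 FPKM to 83.5, 104 and 95.7 FPKM (limma, adjusted p = 0.00271). Before POX_h09550, POX_h09549 was listed at 0 in all 6 libraries, and after it POX_h09551 was measured at 38.0, 10.1 and 9.30 FPKM in the parent and at 17.1, 10.1 and 5.21 FPKM in the deletion strain, with overlapping groups.

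Members listed at 0 in the parent also had neighbours that were not silent there. POX_f08227, next to POX_f08226, stood at 19.1 to 36.0 FPKM in the parent and at 12.9 to 19.2 FPKM in Δ*rsrC*. POX_f08228 fell by 1.63 on the log2 scale, with an SE of 0.32 (limma, adjusted p = 0.00883). POX_f08226 lies 77 gene numbers past the left-out stretch on f, and POX_f08059, another member, lies 46 before it. On both sides of POX_c04679 and POX_c04680 the changes were opposite. POX_c04678 was raised by 0.99 ± 0.13 (log2 scale, SE; limma, adjusted p = 0.00270), and POX_c04681 had a change of -0.77 ± 0.19 (limma, adjusted p = 0.0190), a call lost in 4 of the 12 alternative fits. At the number after that, POX_c04682 was at 0 in all 3 Δ*ku70* libraries and at 9.30, 0 and 10.1 FPKM in Δ*rsrC*, so that its 0 in replicate 2 kept it out of the set.

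**Figure D5:**
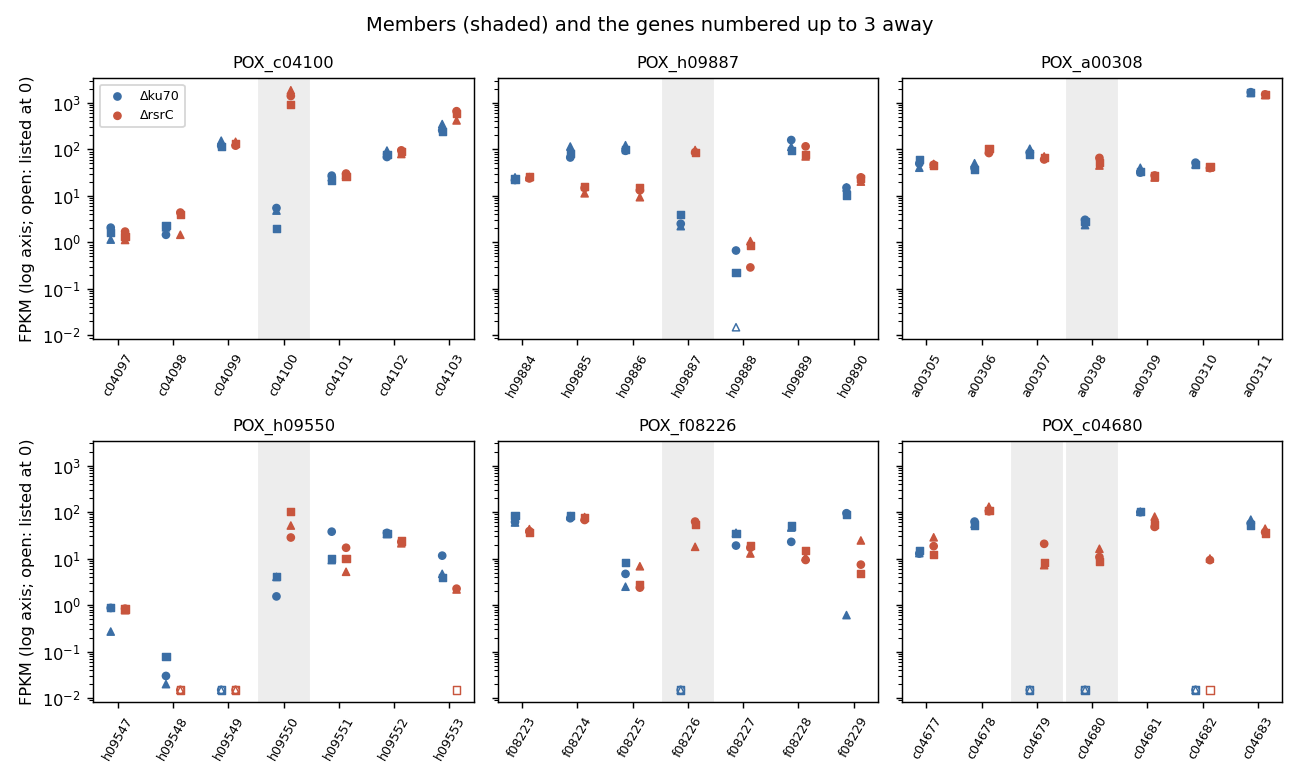
FPKM (log axis) of 6 members and a second member beside the last (grey bands) and of the genes numbered up to 3 away, with blue symbols for Δ*ku70*, red for Δ*rsrC*, circles, squares and triangles for replicates 1, 2 and 3, and open symbols for values listed at 0. The red and blue symbols part widely in the bands. Among the other genes with no value listed at 0, they part most at POX_h09885 and POX_h09886, where Δ*rsrC* is lower. POX_c04682 is at 0 in all Δ*ku70* libraries and at 9.30, 0 and 10.1 FPKM in Δ*rsrC*.

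The membership of the set depended on how it was drawn for its lower part. Under 14 other selections, 14 members were kept in all. Under the 12 that kept the ceiling of 6 FPKM, 26 members were always kept, among them 10 of the 11 genes with a gap of at least 10 FPKM. The exception was POX_c04100, which left the set when libraries were rescaled to equal sums, because its highest Δ*ku70* value became 6.04 FPKM, just above the ceiling. Its lowest Δ*rsrC* value was then 857 FPKM. A ceiling of 3 FPKM kept 23 members, since 27 of the 50 stood above 3 FPKM in a Δ*ku70* library.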

How the data were processed

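Mycelium RNA of 6 libraries was enriched for polyadenylated RNA with oligo(dT) beads and sequenced. Each library has its own table of FPKM, deposited by the authors for 9822 genes with 2 decimals. The study names BWA, Bowtie2, RSEM and the genome of strain HP7-1, while the submitters' processing notes name HISAT2. The build is not given in the sources used here. FPKM hold no counts, so no interval or floor was computed. Relative depth was the most frequent ratio of low values against Δ*ku70* replicate 1.

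Groups were taken from the sample titles. Genes whose mean over the 6 libraries reached 1 FPKM were fitted as log2(FPKM + 1) with limma (version 3.58.1, R 4.3.3, intensity trend, two-sided, Benjamini-Hochberg over all tested genes). Its code was tested on simulated data. The members and lists were chosen with earlier results of these data known. Named were the first 12 members by gap, members at 0 in all Δ*ku70* libraries, the 3 most and 3 least even, the 3 on each side of rank 50, and those with an annotation. Other names were chosen after their values were seen. Alternatives were another pseudocount (0.1), no filter, 3 scalings, a replicate block, other ceilings (3 and 10 FPKM), other ranks and leaving out each library. Same-numbered libraries did not deviate together (r = 0.0046, -0.13 and -0.24), so the numbers were not taken as pairs. The RefSeq gene table (assembly ASM172317v3) matched 9718 of 9822 IDs and 49 of the 50 members, and was used for names and overlaps only. Promoter and protein sequences were not analysed here.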

Additional observations from a re-analysis of the deposited data

How the results depend on the processing

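All 50 members kept their direction in the 12 alternative fits. Between 45 and 50 of them were called raised, lowest without Δ*rsrC* replicate 1. An adjusted p-value of 0.05 or more in at least 1 of the limma fits was found for 6 members (POX_b03381, POX_g08827, POX_a01660, POX_c04564, POX_a01689 and POX_f07959). Scaling moved the balance over all genes. The 1184 raised genes made up 35.0% of calls, with a median log2 change of -0.13 over all tested genes. Rescaling to equal sums gave 742 raised genes (16.9% of calls, median -0.35), median-ratio scaling 1623 (52.2%, median -0.002) and quantile normalization 1376 (48.2%, median -0.04). The median of the members was between 1.54 and 2.25 in all fits. With the replicate block, 785 genes were raised, 2213 raised or lowered and 47 members called, whereas 3386 genes were raised or lowered without it. Leaving out 1 library gave 762 to 1271 raised genes and 2126 to 3476 raised or lowered genes, lowest without Δ*rsrC* replicate 1. Raised genes within 5 numbers of a member, a count added after the data were seen, were 64, and 41 after rescaling to equal sums, with a range of 41 to 65 when 1 library was left out.

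Of the 50 members, 23 were kept with a ceiling of 3 FPKM, 28 with a ceiling of 10 FPKM, 32 when ranked by the difference of means, and 36 to 42 when 1 library was left out. The 6 members with another within 5 gene numbers became 2 under either ceiling and 10 with the left-out stretches kept in, and ranged from 2 (without Δ*rsrC* replicate 3) to 7 when 1 library was left out. The 2 members within 50 gene numbers of an end became 7 and 6 with ceilings of 3 and 10 FPKM, 1 within 25 and 9 within 100 gene numbers, and 2 to 4 when 1 library was left out. The median ratio of the highest to the lowest Δ*rsrC* library ranged from 1.23 (without Δ*rsrC* replicate 1, where it spans 2 libraries) to 1.67. The low values of most members limit their precision, since the number of reads behind them is unknown.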
